A study of Rattus norvegicus with 20 samples.

Results

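Morphine and bacterial lipopolysaccharide (LPS) were set against each other in cultured microglia of the rat. Microglia are macrophages that live in the brain. The comparison used the 4 libraries labelled morphine and the 4 labelled LPS, 8 of the 20 RNA sequencing libraries of the study. Differences were read across the 8858 genes, of 17310 in the deposited table, that reached at least 1 FPKM in at least 4 of the 20 libraries. FPKM counts sequenced fragments per kilobase of a transcript relative to all fragments of its library. The donors were 21 day old Sprague-Dawley males. The labels call the cells cortical microglia, and the protocol describes myeloid cells captured by their CD11b from brains freed of the cerebellum and then kept in serum-free medium. After 5 days, 1 uM morphine or 1 ng/mL LPS was added with a 50% change of medium. How long the cells were exposed before lysis is not stated in the labels. Libraries from cells given PBS (4) serve below as the background, and those from cells given PAM3CSK4 or zymosan entered only the estimate of the spread between libraries. Whether replicates of 1 treatment stem from different animals or dishes is not labelled, so p-values reflect only the variation among these libraries, and that variation may be technical.

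LPS is sensed by Toll-like receptor 4 (TLR4) on myeloid cells, with CD14 as the protein that hands it over. The adaptors MyD88 and TRIF carry the signal on to the transcription factor NF-kB, to AP-1 and to interferon regulatory factors, which switch on cytokine, chemokine and antiviral genes. Morphine is an agonist of the mu opioid receptor, a receptor coupled to inhibitory G proteins, and whether it also acts on TLR4 in microglia has been debated. The series asks how microglia respond to opioid exposure, and the direct comparison shows where cells given the opioid and cells given the TLR4 agonist differed.

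Of the 8858 genes, 2256 differed between LPS and morphine at an adjusted p under 0.05 in limma, which is the meaning of called below (25.5% of those tested). More genes were lower with LPS (1744, 19.7%) than higher (512, 5.78%). The balance depended on the scaling: after median-ratio rescaling of the libraries 1068 were higher and 1139 lower. That changed the share called higher from 22.7% to 48.4% and moved the median difference of all tested genes from -0.22 to 0.00 on the log2(FPKM + 1) scale, the scale of every difference below. With the replicate number as a block 789 genes were called higher and 2511 lower. On this scale only the largest differences leaned upward. Among called genes, 282 were at least 2-fold higher and 760 at least 2-fold lower (11.8% together). At least 4-fold differences were 104 higher and 145 lower, and at least 16-fold differences 22 higher and 0 lower. These are folds of FPKM + 1, which understate decreases that end near or below 1 FPKM. Gpr34, counted as under 16-fold, had means of 19.7 FPKM with morphine and 0.954 with LPS. The count of 0 therefore holds for this scale only. The 4 LPS libraries lay wholly above the 4 morphine libraries for 446 genes and wholly below for 1571 (22.8% without overlap), and 1797 of the called genes were without overlap.

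**Figure D1:**
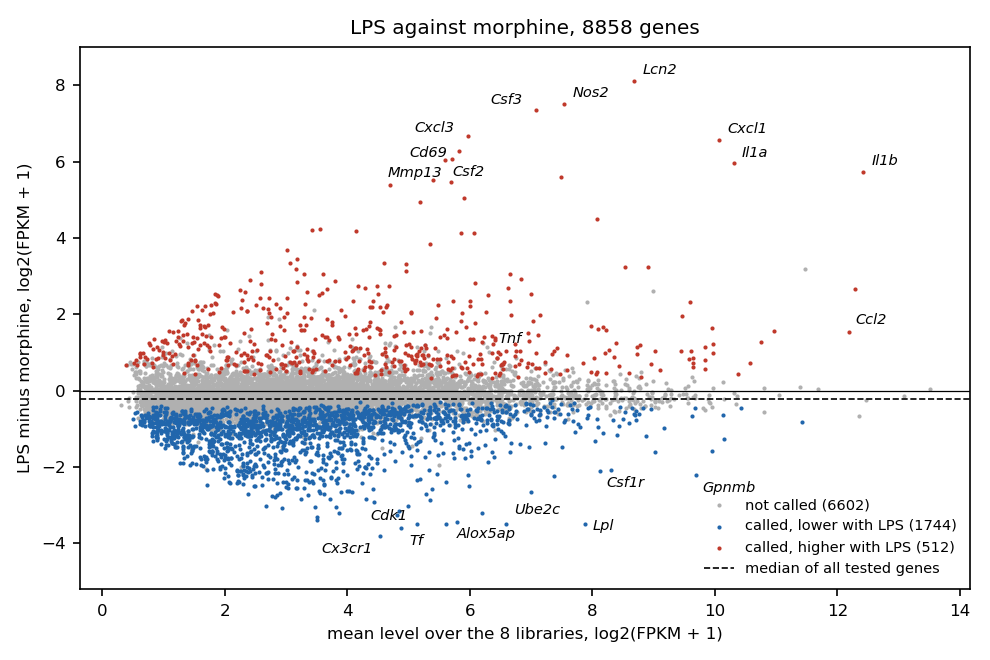
Difference between LPS and morphine (y axis, log2(FPKM + 1), LPS minus morphine) against the mean level over the 8 libraries (x axis, log2(FPKM + 1)) for the 8858 tested genes, each point a gene. Red points were called higher with LPS (512), blue points lower (1744) and grey points were not called, and the dashed line marks the median difference of -0.22. Increases reached 8.12 and decreases -3.81.

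The genes called higher with LPS took up 7.75% to 9.76% of the summed FPKM in the morphine libraries and 23.2% to 25.9% in the LPS libraries. Genes called lower took up 18.8% to 20.8% with morphine and 9.87% to 10.6% with LPS. Il1b alone, the gene of the interleukin-1 beta precursor, accounted for 0.042% to 0.068% with morphine and 2.51% to 3.43% with LPS. Since FPKM is relative to all fragments of a library, a rise of such abundant genes can lower the values of other genes. Whether it did so here was not tested. In bulk samples, fewer cells of a kind and less RNA per cell cannot be told apart.

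The 8 libraries fell into 2 sets that the labels do not explain. Morphine 1 and 2 and LPS 1 and 2 belonged to 7 libraries of the study that a component of the residuals separated from the other 13, and each treatment had 2 libraries in either set. The labels of these libraries give no batch. The first principal component of the 8 libraries (45.9% of the variance) parted LPS from morphine, and the second (36.8%) parted replicates 1 and 2 from replicates 3 and 4. Summed FPKM ranged from 306075 to 382155 and genes above 0 from 9529 to 10418. The number of reads is not recorded in the table, but the steps between its lowest values gave the relative depth, which lay between 0.62 and 0.94 of the deepest library of the study for morphine and between 0.56 and 0.89 for LPS.

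Of 10 microglia and macrophage markers, all 10 were above 1 FPKM in at least 1 of the 8 libraries, with sums of 3926 to 5844 FPKM in the morphine and 2755 to 4438 in the LPS libraries. The astrocyte markers Gfap, Aqp4 and Sox9 were listed at 0 in all 8, as were the neuronal markers Rbfox3, Syt1, Stmn2, Slc17a7 and Gad1 and the endothelial markers Cldn5 and Kdr. Other members of these lists exceeded 1 FPKM in at least 1 library, namely Slc1a3, Snap25, Tubb3, Flt1, Cdh5, Tek and Esam. So did Mbp and Cnp, from the oligodendrocyte list, and Cspg4, from the precursor list. Across the 8 libraries Flt1, an endothelial marker, measured 4.01 to 14.4 FPKM and Cnp 5.77 to 24.3. Some markers of other cells moved with LPS. The border macrophage list, with 4 of 6 members above 1 FPKM and Cd163 at 0, summed to 73.9 to 110.3 FPKM with morphine and 154 to 208.9 with LPS. Its member Pf4 was higher with LPS in every library (13.7 to 50.1 against 102 to 153 FPKM), while Mrc1 (1.53 to 6.68 against 0.121 to 1.56) and Lyve1 (4.41 to 11.2 against 0.784 to 2.44) leaned the other way. Tubb3, from the neuronal list, measured 0.589 to 4.68 FPKM with morphine and 8.63 to 18.6 with LPS, and Esam, from the endothelial list, 2.18 to 11.9 and 7.32 to 72.1. From the neutrophil list, S100a8 measured 0 to 0.872 FPKM with morphine and 1.07 to 4.23 with LPS, while Mpo and Elane were listed at 0. Ly6c, from the monocyte list, and Cd79b, from the lymphocyte list, reached 4.93 and 1.29 FPKM, both with morphine. No other analysed member of these lists exceeded 1 FPKM. The part of such cells in the results was not tested.

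The 10 genes with the largest increases were cytokines, chemokines, enzymes and secreted proteins of the inflammatory response, most of them low with morphine. For every gene whose 8 values are given here, the LPS and morphine libraries did not overlap unless an overlap is stated. Lcn2 encodes lipocalin 2, an iron-siderophore binding protein of the antibacterial defence. Lcn2 measured 2.28, 1.43, 1.15 and 2.98 FPKM with morphine and 595, 1036, 869 and 761 with LPS, here and below in the order of replicates 1 to 4 (log2 difference 8.12, SE 0.21, adjusted p = 3.21e-15). Nos2, the inducible nitric oxide synthase, measured 0.127, 0.572, 1.24 and 1.35 FPKM with morphine and 204, 169, 476 and 631 with LPS (log2 difference 7.52, SE 0.51, adjusted p = 4.22e-09). Csf3, the granulocyte colony-stimulating factor, measured 0.660, 1.28, 0 and 0.893 FPKM with morphine and 230.4, 227, 313 and 298 with LPS (log2 difference 7.34, SE 0.31, adjusted p = 5e-12). No LPS library of these genes came near a morphine library. The others were the chemokine genes Cxcl3 (6.68) and Cxcl1 (6.58), the activation antigen Cd69 (6.28), the collagenase gene Mmp13 (6.08), the colony-stimulating factor Csf2 (6.05), Il1a (5.97) and Il1b (5.73).

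The 10 largest decreases were smaller and fell mostly on microglial, lipid and cell cycle genes. Cx3cr1 encodes the fractalkine receptor, by which microglia sense neurons. Cx3cr1 measured 26.3, 36.9, 48.0 and 55.8 FPKM with morphine and 0.383, 4.10, 1.36 and 3.49 with LPS (log2 difference -3.81, SE 0.50, adjusted p = 1.32e-05). PBS libraries lay at 39.3 to 96.1 FPKM, and every LPS library was below every morphine library. Tf, the gene of the iron carrier transferrin, followed at -3.61, Lpl, the lipoprotein lipase gene, at -3.49, Alox5ap, whose product presents arachidonate for leukotriene synthesis, at -3.48, and Gpr34, a microglial lysophospholipid receptor, at -3.32. The remaining 5 were Ube2c (-3.49), Cdk1 (-3.49), Rrm2 (-3.44), Spc25 (-3.38) and Ccna2 (-3.25), all of the cell cycle.

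Genes that were off with morphine and on with LPS were few. At most 1 FPKM in all 4 morphine libraries and at least 10 FPKM in all 4 LPS libraries was met by 5 genes, Cxcl3, Inhba, Mmp13, Mmp3 and Wfdc21, and the reverse by none. Inhba, which encodes a subunit of activins, measured 0.122, 0, 0.278 and 0.280 FPKM with morphine and 29.2, 14.9, 19.1 and 22.4 with LPS. Mmp3, the stromelysin gene, measured 0.0608, 0, 0.184 and 0 FPKM against 18.1, 11.6, 27.9 and 19.7. They were 2 matrix protease genes, a chemokine, a cytokine subunit and a gene named for the whey acidic protein fold.

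Few of the receptors and adaptors that sense LPS passed the test themselves. Of 20 tested members of the sensing and adaptor list, 1 was called higher and 1 lower (2 and 4 with the replicate block). All tested genes gave 25.5% called, and the list median was -0.05 (0.18 after rescaling). Ly96, whose product is a partner of TLR4, and Lbp were too low to test. Ly96 reached at most 0.369 FPKM, and Lbp was listed at 0 in all 8 libraries. Tlr4 measured 4.61, 3.57, 12.8 and 17.6 FPKM with morphine and 2.66, 2.35, 6.94 and 7.51 with LPS (log2 difference -0.75, SE 0.51, adjusted p = 0.329, 95% interval -1.82 to 0.33; adjusted p = 0.037 with the block). Replicates 3 and 4 were above replicates 1 and 2 in both treatments, and the groups overlapped. Cd14 measured 1133, 862, 784 and 1338 FPKM with morphine and 651, 640.5, 641 and 1083 with LPS (log2 difference -0.46, SE 0.23, adjusted p = 0.176; adjusted p = 0.0268 with the block). LPS 4 lay within the morphine range of Cd14. Myd88 measured 19.4, 13.6, 30.5 and 34.4 FPKM with morphine and 23.5, 16.2, 32.5 and 34.7 with LPS (log2 difference 0.15, SE 0.28, adjusted p = 0.761), and its groups overlapped. Irak2, a kinase that prolongs the signal downstream of MyD88, was the member called higher. Irak2 measured 8.75, 7.05, 13.2 and 17.6 FPKM with morphine and 57.5, 26.5, 72.1 and 53.3 with LPS (log2 difference 2.07, SE 0.30, adjusted p = 3.19e-05). Tlr3, the sensor of double-stranded RNA, was called lower at 4.97, 5.26, 7.48 and 8.08 FPKM with morphine and 0.939, 0.0595, 1.36 and 0.755 with LPS (log2 difference -2.10, SE 0.29, adjusted p = 2.25e-05).

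NF-kB is held in the cytoplasm by inhibitor proteins of the IkB family, which are themselves NF-kB targets and so give negative feedback. Of 22 subunits, inhibitors and targets tested, 11 were called higher with LPS and 0 lower, beside 5.78% and 19.7% of all tested genes. The median was 0.78 against -0.22 over all tested genes. Nfkbia, the gene of the main inhibitor IkB alpha, measured 76.6, 80.9, 59.1 and 73.6 FPKM with morphine and 226, 229, 172 and 184 with LPS (log2 difference 1.47, SE 0.12, adjusted p = 5.92e-08). The 4 LPS libraries lay above all morphine libraries and above the PBS libraries (65.1 to 77.1 FPKM). Nfkbiz, an atypical IkB protein needed for secondary response genes, differed by 2.34, Birc3, an inhibitor of apoptosis, by 2.74, and Sod2, the mitochondrial superoxide dismutase, by 2.33. Rela, the main activating subunit, measured 26.4, 27.8, 36.0 and 32.6 FPKM with morphine and 33.1, 27.9, 35.3 and 35.6 with LPS (log2 difference 0.10, SE 0.13, adjusted p = 0.641). Its groups overlapped, and it passed after rescaling (0.36, adjusted p = 0.0305). Tnfaip3, Rel and Relb were not analysed here.

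Promoter windows of LPS-induced genes are shown because they hold, or lack, GGANTTTCC, 1 form of NF-kB type motif. They come from the RefSeq promoter table (assembly GRCr8, 250 bases before to 50 after each start, read 5′ to 3′ along the gene). Capitals mark GGANTTTCC on either strand. Cxcl1 (chr14:17479322-17479571, minus strand) and Csf2 (chr10:38889674-38889923, minus strand) are the 2 cytokine or chemokine genes with the largest increases that the table holds, and the last 250 bases before the start are printed. The windows of Il6 (chr4:5894609-5894667, minus), Nfkbiz (chr11:58251684-58251720, plus), Nfkbia (chr6:78597219-78597277, minus) and Cxcl11 (chr14:15973630-15973688, plus) were chosen after their values were seen.
Cxcl1: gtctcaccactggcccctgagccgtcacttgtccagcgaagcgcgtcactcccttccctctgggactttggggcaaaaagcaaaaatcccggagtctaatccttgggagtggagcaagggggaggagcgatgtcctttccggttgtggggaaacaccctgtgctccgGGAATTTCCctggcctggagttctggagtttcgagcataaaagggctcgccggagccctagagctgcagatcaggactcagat
Csf2: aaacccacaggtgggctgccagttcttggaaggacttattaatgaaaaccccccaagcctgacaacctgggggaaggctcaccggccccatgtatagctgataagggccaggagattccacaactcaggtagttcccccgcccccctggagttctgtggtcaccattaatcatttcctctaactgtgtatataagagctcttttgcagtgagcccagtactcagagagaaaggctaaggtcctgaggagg
Il6: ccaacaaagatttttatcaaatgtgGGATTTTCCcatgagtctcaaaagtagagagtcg
Nfkbiz: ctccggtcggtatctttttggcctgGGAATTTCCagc
Nfkbia: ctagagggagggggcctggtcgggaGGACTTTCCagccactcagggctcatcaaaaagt
Cxcl11: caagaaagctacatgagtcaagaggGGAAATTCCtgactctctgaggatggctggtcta
Csf2 holds no match of these letters in its window, and in the others the printed match begins between 180 and 12 bases before the start. Other forms of NF-kB site were not searched, so a window without a match may still hold one. Nfkbia holds another match 31 bases before the start, outside the stretch shown. The motif was present in 103 of 7318 tested genes with a promoter entry (1.41%), in 12 genes called higher with LPS (3.02% of those with an entry), in 11 called lower (0.762%), in 3 of 14 chemokines, in 4 of 19 genes of the NF-kB list and in 2 of 18 cytokines. A match of these letters is a description of the window and not a measured binding site.

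Feedback genes were higher as well. Among 16 phosphatases, suppressors of cytokine signalling and mRNA decay factors, 8 were called higher and 1 lower, with a median of 1.08. The shares over all tested genes were 5.78% and 19.7%. Socs3, which blocks signalling by interleukin-6 type receptors, measured 0.991, 1.08, 3.00 and 7.88 FPKM with morphine and 32.0, 9.57, 64.0 and 66.5 with LPS (log2 difference 3.33, SE 0.59, adjusted p = 0.000309). The LPS library of replicate 2 was the lowest of the 4 and still above every morphine library. Cish, a related suppressor, differed by 2.42, Zc3h12a, an RNase that degrades cytokine mRNA, by 2.35, Zfp36 by 1.79 and Dusp1, a phosphatase that ends MAP kinase signalling, by 1.77. Zfp36l2 was the member called lower (log2 difference -0.96, SE 0.28, adjusted p = 0.0146), a call lost without LPS 2 (adjusted p = 0.0575). The most abundant member not called was Dusp6 (log2 difference -0.21, SE 0.26, adjusted p = 0.631).

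Of 26 cytokine genes tested, 13 were called higher and 3 lower, beside 5.78% and 19.7% of all tested genes, with a median of 0.91. Il1b measured 149, 186, 216 and 261 FPKM with morphine and 10031, 8268, 12074 and 12712 with LPS (log2 difference 5.73, SE 0.21, adjusted p = 7.77e-13). PBS libraries measured 193 to 271 FPKM, overlapping the morphine libraries and far below the LPS libraries. Il6 measured 23.3, 19.6, 13.5 and 33.8 FPKM with morphine and 551, 396, 559.5 and 544 with LPS (log2 difference 4.51, SE 0.27, adjusted p = 9.78e-10). Tnf measured 56.9, 77.1, 34.4 and 51.3 FPKM with morphine and 118, 148, 86.4 and 80.8 with LPS (log2 difference 0.98, SE 0.24, adjusted p = 0.00509). All 4 LPS libraries of Tnf were above all 4 morphine libraries, by a narrow gap between 77.1 and 80.8 FPKM. Il10, an anti-inflammatory cytokine, was low in both groups, at 0.279, 1.22, 1.69 and 0.424 FPKM with morphine and 3.91, 2.51, 4.78 and 4.45 with LPS (log2 difference 1.41, SE 0.29, adjusted p = 0.00109). Il1rn, the natural antagonist of the interleukin-1 receptor, measured 111, 60.5, 149 and 91.3 FPKM with morphine and 100.3, 67.4, 87.9 and 56.7 with LPS and the groups overlapped (log2 difference -0.36, SE 0.23, adjusted p = 0.304). Igf1, a growth factor that microglia supply to neurons, was lower with LPS. Igf1 measured 28.6, 33.9, 38.4 and 41.0 FPKM with morphine and 3.88, 4.32, 6.51 and 5.82 with LPS (log2 difference -2.58, SE 0.23, adjusted p = 1.86e-07).

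Chemokines of the neutrophil-attracting CXC kind and the monocyte-attracting CC kind were higher, and interferon-linked CXC genes were mixed. Of 19 tested, 12 were called higher and 2 lower (12 and 0 after rescaling), beside 5.78% and 19.7% of all tested genes. The median was 1.36. Cxcl1 measured 28.4, 17.9, 14.3 and 27.8 FPKM with morphine and 2078, 2337, 2321 and 1798 with LPS (log2 difference 6.58, SE 0.28, adjusted p = 5e-12). Ccl2, a monocyte attractant already abundant with morphine, measured 2093, 2077, 1804 and 3893 FPKM with morphine and 6041, 7902, 6131 and 7364 with LPS (log2 difference 1.54, SE 0.23, adjusted p = 6.12e-05). Ccl3 measured 1459, 1687, 829 and 1519 FPKM with morphine and 8739, 11562, 7486 and 6634 with LPS (log2 difference 2.66, SE 0.21, adjusted p = 4.65e-08). None of these 3 genes overlapped between the groups. Cxcl10 measured 122, 79.8, 55.8 and 83.1 FPKM with morphine and 61.4, 40.3, 38.9 and 27.5 with LPS, with 1 LPS library inside the morphine range (log2 difference -1.01, SE 0.31, adjusted p = 0.0223). The Cxcl10 call was lost after rescaling (-0.75, adjusted p = 0.195) and without LPS 4 or Morphine 1 (adjusted p = 0.0753 and 0.0808). Cxcl16, a membrane-bound chemokine, was called lower without overlap (log2 difference -0.55, SE 0.14, adjusted p = 0.00705) and was not called after rescaling (adjusted p = 0.39). Cxcl11, the neighbour of Cxcl10 in function, was called higher at a low level, 0 to 1.92 FPKM with morphine and 2.35 to 3.73 with LPS. Ccl4 passed (log2 difference 1.04, SE 0.33, adjusted p = 0.0238), but its groups overlapped, and the call was lost without LPS 1, LPS 2, LPS 3 or Morphine 3 (adjusted p between 0.0506 and 0.101). Ccl6 was the most abundant member not called (log2 difference -0.74, SE 0.71, adjusted p = 0.508). Together, the 45 tested cytokines and chemokines took up 1.45% to 2.86% of the summed FPKM with morphine and 9.77% to 13.01% with LPS.

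Receptors for these ligands moved in both directions. Of 27 tested, 4 were called higher and 4 lower, beside 5.78% and 19.7% of all tested genes. The counts were 6 and 5 with the block and 7 and 3 after rescaling. The list median was -0.08 (0.13 after rescaling). Tnfrsf1b, the type 2 receptor of tumour necrosis factor, measured 3.42, 0.682, 7.95 and 7.15 FPKM with morphine and 48.8, 39.3, 100.4 and 111 with LPS (log2 difference 3.84, SE 0.50, adjusted p = 1.17e-05). Ccrl2, an atypical chemerin-binding receptor, was higher by 1.4 and Cmklr1, the signalling chemerin receptor, lower by 2.22. C5ar1, the complement C5a receptor, was abundant and not called (log2 difference 0.16, SE 0.20, adjusted p = 0.628).

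**Figure D2:**
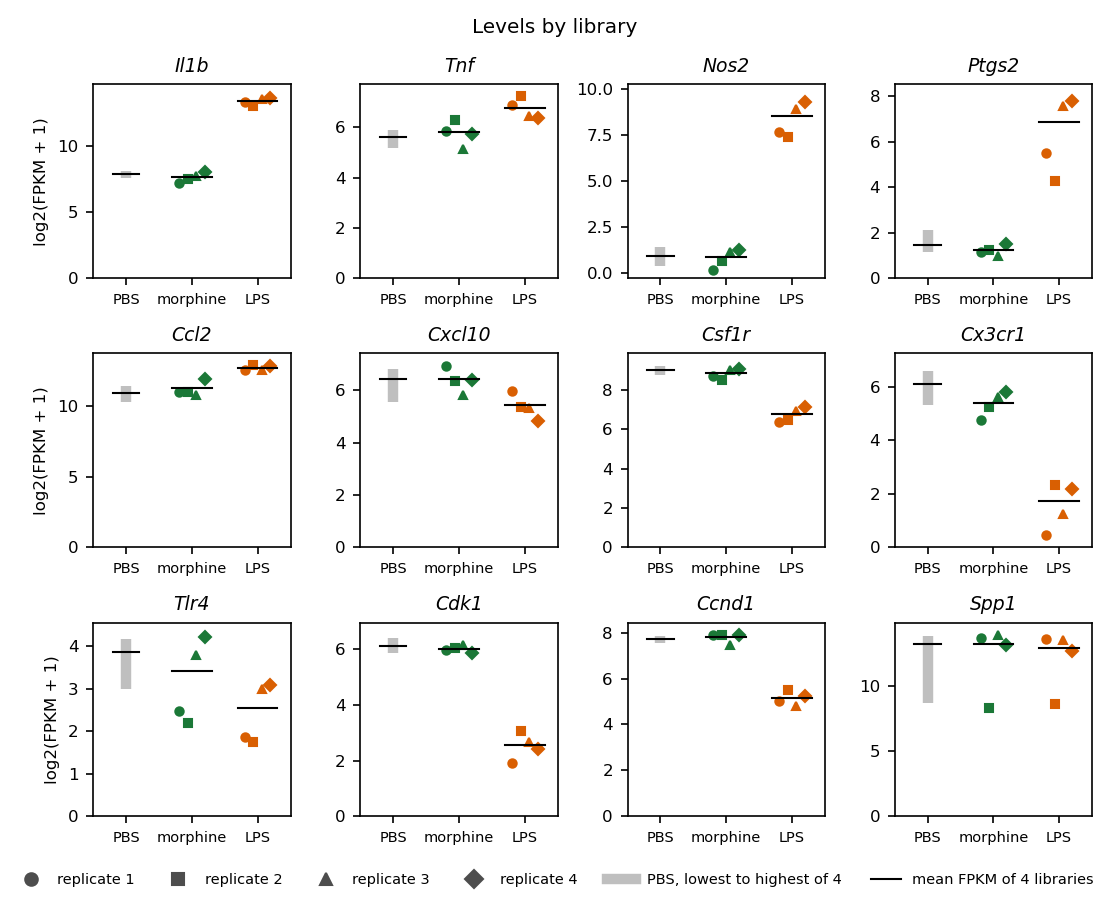
Levels of 12 genes as log2(FPKM + 1) on the y axis, each axis starting at or just below 0, with PBS, morphine and LPS on the x axis. Symbols are single libraries by replicate number, grey bars span the lowest to the highest PBS library and black lines mark the mean FPKM. Il1b, Nos2, Ptgs2, Csf1r, Cx3cr1, Cdk1 and Ccnd1 were apart in the groups, Tlr4 and Spp1 overlapped, and replicate 2 of Spp1 was low with either treatment.

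Enzymes of small mediators split by pathway. Of 20 genes for prostaglandin, leukotriene, nitric oxide and itaconate synthesis, 10 were called higher and 3 lower, beside 5.78% and 19.7% of all tested genes. The counts were 12 and 5 with the replicate block, and the median was 0.96. Ptgs2, the inducible cyclooxygenase, measured 1.20, 1.37, 0.951 and 1.83 FPKM with morphine and 43.8, 18.1, 187 and 217 with LPS (log2 difference 5.05, SE 0.74, adjusted p = 4.36e-05). The difference was 3.68 in replicates 1 and 2 and 6.43 in replicates 3 and 4, which was not a called difference between the sets (adjusted p = 0.627). Without LPS 2 it was 5.72. Ptges, the enzyme that follows it on the way to prostaglandin E2, was higher by 2.21 and the receptor Ptger2 by 2.2. IRG1, the older symbol of the itaconate-producing enzyme ACOD1, measured 8.20, 1.65, 6.11 and 10.3 FPKM with morphine and 105, 58.6, 161 and 177 with LPS (log2 difference 4.12, SE 0.47, adjusted p = 2.16e-06). Slc7a2, an arginine importer, was higher by 4.95, Ass1, which recycles citrulline to arginine, by 2.23, and Arg1, which competes for arginine, by 2.78. The leukotriene enzymes went down, all 3 called genes being of that pathway. Alox5ap measured 117, 83.5, 62.6 and 90.7 FPKM with morphine and 13.02, 3.87, 4.802 and 8.35 with LPS (log2 difference -3.48, SE 0.30, adjusted p = 9.31e-08). Lta4h was lower by 1.98 and Alox5 by 1.56. Ptges3 was the most abundant member not called, without overlap between the groups (log2 difference -0.34, SE 0.13, adjusted p = 0.0615; adjusted p = 0.00595 with the block).

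Genes of the interferon response were called in both directions. Of 31 tested, 2 were called higher and 8 lower (3 and 6 after rescaling), beside 5.78% and 19.7% of all tested genes, with a median of -0.43 (-0.19 after rescaling). Oasl, an antiviral effector, measured 124, 65.5, 106 and 193 FPKM with morphine and 395, 259, 467 and 401 with LPS (log2 difference 1.70, SE 0.27, adjusted p = 8.09e-05). Usp18, which restrains interferon signalling, was higher by 1.00. Ifit2 measured 14.3, 10.4, 19.6 and 39.6 FPKM with morphine and 6.04, 2.10, 13.03 and 6.32 with LPS (log2 difference -1.51, SE 0.50, adjusted p = 0.0329), with 1 LPS library inside the morphine range, and Mx2 differed by -1.5. The last 2 calls depended on single libraries. Ifit2 lost it without LPS 1, LPS 2, LPS 4, Morphine 3 or Morphine 4 (adjusted p between 0.0529 and 0.125) and Mx2 without LPS 2, LPS 4, Morphine 1 or Morphine 4 (between 0.0591 and 0.116). Irf9, a factor that carries the interferon signal to the nucleus, was called lower (-0.70), and Isg15 was not called (log2 difference 0.22, SE 0.38, adjusted p = 0.746).

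Antigen presentation and costimulation parted. Of 14 genes tested, 3 were called higher and 5 lower, beside 5.78% and 19.7% of all tested genes. The counts were 3 and 7 with the block and 4 and 3 after rescaling, and the median was -0.33. The costimulatory genes Cd40 (1.53) and Cd86 (1.33) and the checkpoint ligand Cd274 (2.18) were higher. Cd40 measured 31.8, 23.2, 17.4 and 36.0 FPKM with morphine and 84.3, 54.7, 66.0 and 116 with LPS (log2 difference 1.53, SE 0.27, adjusted p = 0.000306). The class II chain genes of the list, RT1-Da, RT1-Db1, RT1-Ba and RT1-Bb, were too low to test, at most 0.326 FPKM. Ciita, of the same list, was listed at 0 in all 8 libraries. RT1-DMa and RT1-DMb encode the chaperone that loads peptides onto MHC class II. RT1-DMa measured 67.2, 96.2, 49.5 and 70.5 FPKM with morphine and 9.35, 7.73, 9.20 and 8.22 with LPS (log2 difference -2.86, SE 0.17, adjusted p = 6.08e-10), and RT1-DMb differed by -2.31. The immunoproteasome subunits Psmb8, Psmb9 and Psmb10 were lower by 0.88, 0.80 and 1.75. B2m, the light chain of MHC class I, was not called (log2 difference -0.52, SE 0.20, adjusted p = 0.0598) and passed with the block (adjusted p = 0.00173), without LPS 1 (0.0186) and without Morphine 3 (0.0294). Where genes are close to identical, as in the RT1, Fcgr, Cxcl1 to Cxcl3 and metallothionein groups, the table does not show how shared reads were divided.

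Immediate early genes, transcribed within minutes of a signal, were higher in part. Of 21 tested, 6 were called higher and 0 lower (9 and 0 with the block, 11 and 0 after rescaling), with a median of 0.47. Ier3, a survival factor, measured 367, 296, 194 and 322 FPKM with morphine and 1370.0, 1029, 1168 and 919 with LPS (log2 difference 1.95, SE 0.20, adjusted p = 7.6e-07). Maff (1.90), Junb (1.37), Klf6 (1.30), Fosl1 (0.94) and Fosl2 (0.80) were the other called members, all transcription factors. Atf3 was not called (log2 difference 0.47, SE 0.24, adjusted p = 0.172) and passed with the block (adjusted p = 0.00881), after rescaling (0.00582) and without Morphine 3 (0.0316). Among 24 factors of macrophage identity and function, 4 were called higher and 1 lower (4 and 3 with the block). Shares over all tested genes were 5.78% and 19.7%. The list median was -0.12 (0.13 after rescaling). Batf, an AP-1 partner, measured 8.93, 6.11, 7.72 and 10.2 FPKM with morphine and 50.8, 36.1, 34.0 and 30.3 with LPS (log2 difference 2.07, SE 0.19, adjusted p = 2.92e-07). Cebpd was higher by 1.19, Hif1a by 0.91 and Ets2 by 0.89. Etv5, a target of growth factor signalling, was lower by 1.56. Spi1, encoding the lineage factor PU.1, measured 155, 107, 163 and 171 FPKM with morphine and 134, 108, 147 and 158 with LPS and overlapped between the groups (log2 difference -0.11, SE 0.15, adjusted p = 0.658).

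Genes that mark microglia were mostly lower with LPS. Of 22 tested, 12 were called lower and 1 higher, beside 19.7% and 5.78% of all tested genes, with a median of -1.19. Csf1r, the receptor of the survival factors CSF1 and interleukin-34, measured 413, 357, 512 and 524 FPKM with morphine and 81.0, 86.2, 119.8 and 137 with LPS (log2 difference -2.10, SE 0.20, adjusted p = 2.92e-07). P2ry12, a purinergic receptor of process motility, measured 3.65, 3.49, 2.99 and 3.35 FPKM with morphine and 0.102, 0.241, 0 and 0.383 with LPS (log2 difference -1.90, SE 0.20, adjusted p = 1.23e-06). No LPS library of these 2 genes reached the lowest morphine library. Trem2, a lipid receptor, was lower by 2.22 and Cst3 by 1.27. Tmem119 measured 11.3, 15.95, 18.4 and 15.9 FPKM with morphine and 4.87, 4.32, 11.2 and 5.75 with LPS (log2 difference -1.18, SE 0.38, adjusted p = 0.0279). Its call was lost without LPS 1, LPS 2, LPS 4, Morphine 2, Morphine 3 or Morphine 4 (adjusted p between 0.0522 and 0.0808). Siglec5, an inhibitory lectin, was the member called higher, at 2.30, 6.88, 3.43 and 2.46 FPKM with morphine and 20.6, 46.5, 27.1 and 26.4 with LPS (log2 difference 2.74, SE 0.50, adjusted p = 0.000364). Aif1 (log2 difference 0.18, SE 0.18, adjusted p = 0.53), Itgam, the CD11b used for the purification (log2 difference -0.03, SE 0.56, adjusted p = 0.982), and Tyrobp (log2 difference -0.34, SE 0.25, adjusted p = 0.36) were not called.

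Complement genes were mostly lower. Of 11 complement genes 6 were called lower and 1 higher, beside 19.7% and 5.78% of all tested genes, with a median of -1.03. The 3 chains of C1q, which tags material for removal, were lower by 2.31 (C1qa), 2.34 (C1qb) and 2.47 (C1qc). C1qc measured 10.7, 34.4, 13.3 and 21.9 FPKM with morphine and 2.47, 3.43, 2.51 and 1.71 with LPS (log2 difference -2.47, SE 0.29, adjusted p = 3.86e-06). Cfp, which stabilises the alternative pathway convertase, fell by 2.51. C3 was the member called higher, at 0.525, 0.532, 0.709 and 0.941 FPKM with morphine and 3.38, 3.25, 1.62 and 12.7 with LPS (log2 difference 1.61, SE 0.57, adjusted p = 0.0443), and lost the call when any library but LPS 3 was left out (adjusted p between 0.0622 and 0.157). Of 21 phagocytic, Fc and scavenger receptors 2 were called higher, 7 lower and 12 were not called (2 higher and 11 lower with the block, 3 and 5 after rescaling), beside 19.7% of all tested genes called lower, with a median of -0.52. Fcgr2b, an inhibitory Fc receptor, measured 70.8, 51.6, 70.4 and 62.5 FPKM with morphine and 208, 161, 191 and 169 with LPS (log2 difference 1.5, SE 0.15, adjusted p = 5.53e-07), and Fcgr2a was higher by 0.99. Pros1, a bridge to dying cells, was lower by 1.66 and Cd300a, a phosphatidylserine receptor, by 1.38. Fcer1g was not called (log2 difference -0.56, SE 0.26, adjusted p = 0.138; adjusted p = 0.0106 with the block).

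Genes known from microglia in disease models gave 2 called higher and 7 called lower among 14 (3 and 8 with the block, 1 and 4 after rescaling), beside 19.7% of all tested genes called lower, with a median of -0.54. Gpnmb, a lysosomal glycoprotein, measured 1105, 747, 2035 and 1596 FPKM with morphine and 201, 243, 368 and 314 with LPS (log2 difference -2.22, SE 0.30, adjusted p = 1.71e-05). Ctsd was lower by 1.57 and Apoe by 1.08, while Ctsl, another cathepsin, was higher (log2 difference 0.79, SE 0.17, adjusted p = 0.00205). The call of Cd63 (log2 difference 0.44, SE 0.16, adjusted p = 0.0437) was lost after rescaling (adjusted p = 0.0867) and without LPS 1, LPS 2, Morphine 2, Morphine 3 or Morphine 4 (adjusted p between 0.08 and 0.134). Spp1, the osteopontin gene, stood apart by replicate. Spp1 measured 13242, 316, 15392 and 9401 FPKM with morphine and 12578, 404, 11895 and 6669.7 with LPS (log2 difference -0.15, SE 1.57, adjusted p = 0.967). Replicate 2 was the lowest library in both groups, and the interval was too wide to read a treatment difference (-3.43 to 3.14).

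**Figure D3:**
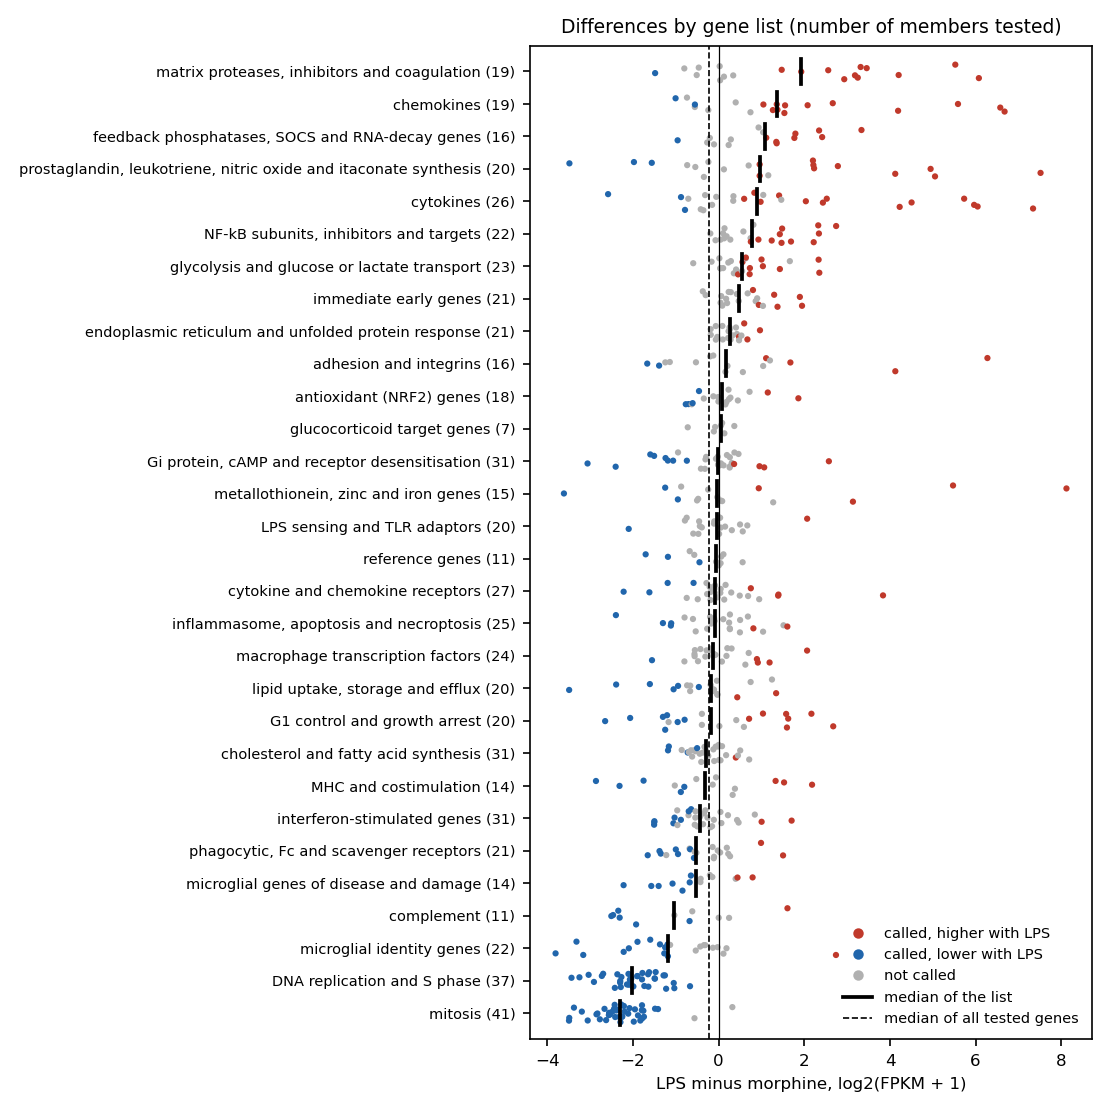
Log2 differences (LPS minus morphine, x axis, log2(FPKM + 1)) of the members of each gene list with at least 5 tested genes, lists on the y axis with the number tested in brackets and ordered by their median. Points are genes, coloured by call, thick lines are list medians and the dashed line is the median of all tested genes, -0.22. List medians run from -2.29 for mitosis to 1.93 for matrix proteases, inhibitors and coagulation.

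Proliferation genes had the largest shares called of all lists. All 37 tested genes of DNA replication and S phase were called lower with LPS, against 19.7% of all genes, with a median of -2.02 and a range from -0.67 to -3.44. Of 41 mitosis genes, 39 were called lower and 0 higher, with a median of -2.29. Mki67, the proliferation antigen, measured 13.4, 22.5, 13.9 and 13.1 FPKM with morphine and 0.718, 1.92, 1.14 and 1.43 with LPS (log2 difference -2.85, SE 0.23, adjusted p = 4.81e-08). Cdk1, the kinase that drives entry into mitosis, measured 61.7, 64.8, 69.6 and 56.6 FPKM with morphine and 2.78, 7.21, 5.40 and 4.31 with LPS (log2 difference -3.49, SE 0.35, adjusted p = 5.53e-07). Rrm2, a ribonucleotide reductase subunit that supplies DNA precursors, measured 77.3, 82.9, 140.1 and 99.5 FPKM with morphine and 4.28, 7.81, 12.4 and 9.93 with LPS (log2 difference -3.44, SE 0.27, adjusted p = 2.83e-08). The PBS libraries of these 3 genes covered 9.88 to 16.7 FPKM, 55.9 to 82.4 FPKM and 85.5 to 122 FPKM, close to the morphine libraries. The mitosis genes not called were Cdc25c and Cks2 (log2 difference 0.32, SE 0.23, adjusted p = 0.357), and Cks2 passed without LPS 4 (adjusted p = 0.042). After rescaling 36 of the 37 and 39 of the 41 were called lower. Where a list gave 0 calls in a direction by limma, the count at an unadjusted p under 0.05 was also 0, for higher replication, mitosis and reference genes as for lower NF-kB, immediate early, glycolysis and endoplasmic reticulum genes.

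**Figure D4:**
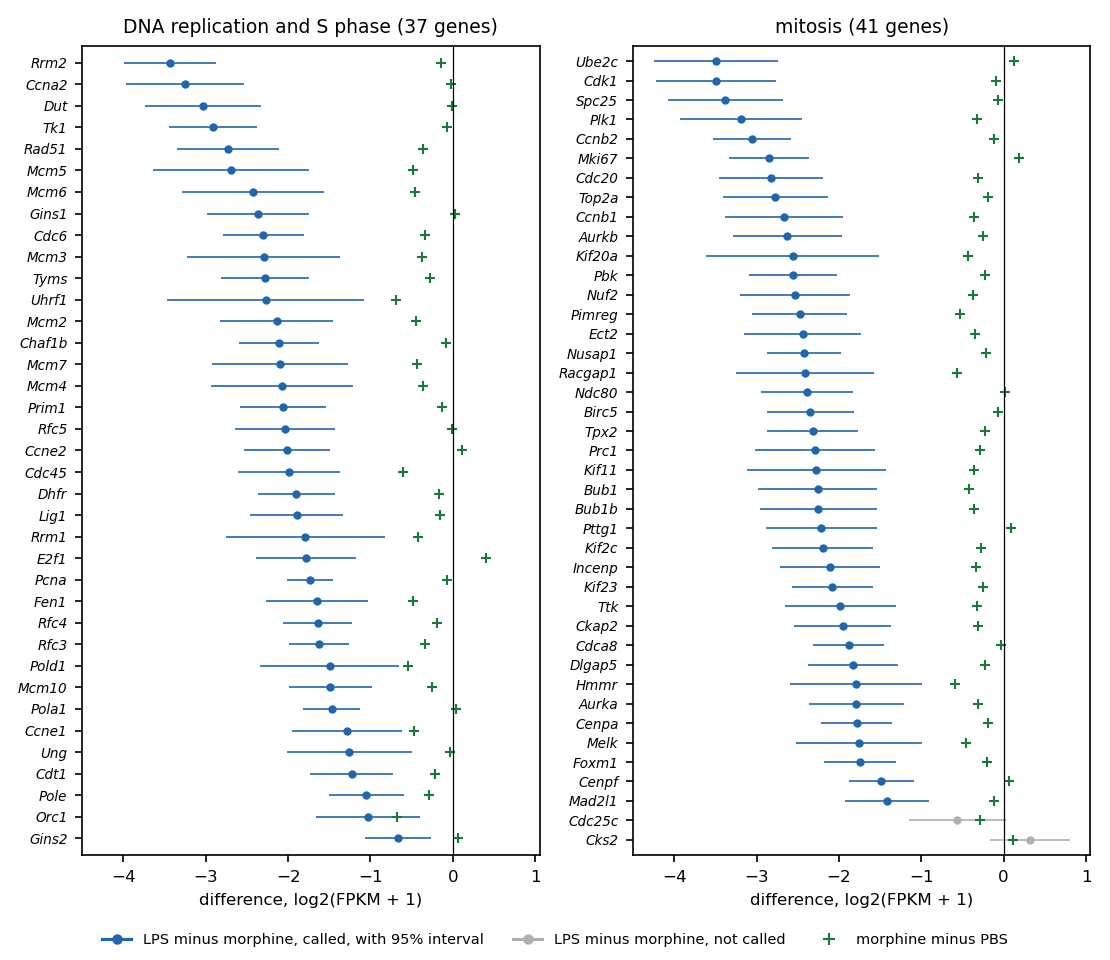
Differences of 37 replication and 41 mitosis genes (y axes, ordered by size) in log2(FPKM + 1) on the x axes. Points with 95% intervals are LPS minus morphine, blue where called lower and grey where not called, and green crosses are morphine minus PBS, which share the morphine libraries. LPS minus morphine medians were -2.02 and -2.29, and both medians of morphine minus PBS were -0.25.

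Promoters of mitosis genes are known to carry the cell cycle homology region and CCAAT boxes, which the DREAM complex and NF-Y read. They are shown because members of this list moved together. The windows are the last 150 bases before the start. Cdk1 and Spc25 are the mitotic genes with the largest decreases that the table holds, and Plk1, Ccnb2 and Mki67 were added after their values were seen. Their positions are Cdk1 (chr20:19265143-19265292, plus), Spc25 (chr3:74396719-74396868, minus), Plk1 (chr1:186147508-186147657, plus), Ccnb2 (chr8:79981659-79981808, minus) and Mki67 (chr1:199952594-199952743, minus). Capitals mark CCAAT and TTTGAA on either strand (ATTGG is CCAAT on the other strand), and in Mki67 the 2 motifs share a base. The TTTGAA of Plk1 lies after the start and is not shown.
Cdk1: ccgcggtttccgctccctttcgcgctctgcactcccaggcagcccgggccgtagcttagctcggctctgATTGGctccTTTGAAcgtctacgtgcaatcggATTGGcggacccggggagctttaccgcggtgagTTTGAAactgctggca
Spc25: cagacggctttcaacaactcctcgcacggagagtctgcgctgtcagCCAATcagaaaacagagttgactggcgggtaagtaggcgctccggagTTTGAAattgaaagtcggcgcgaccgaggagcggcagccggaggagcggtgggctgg
Plk1: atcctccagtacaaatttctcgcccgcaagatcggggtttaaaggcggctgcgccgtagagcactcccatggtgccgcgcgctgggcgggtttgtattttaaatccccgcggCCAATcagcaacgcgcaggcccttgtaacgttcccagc
Ccnb2: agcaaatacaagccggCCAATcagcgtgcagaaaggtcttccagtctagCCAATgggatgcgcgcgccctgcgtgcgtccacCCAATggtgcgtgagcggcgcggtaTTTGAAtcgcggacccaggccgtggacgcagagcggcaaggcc
Mki67: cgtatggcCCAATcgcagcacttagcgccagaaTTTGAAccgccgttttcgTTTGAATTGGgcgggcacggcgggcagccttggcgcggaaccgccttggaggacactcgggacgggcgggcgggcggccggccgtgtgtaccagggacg
TTTGAA was present in 25 of 33 mitosis genes with an entry (75.8%) against 845 of 7318 tested genes (11.5%), and CCAAT in 25 of 33 (75.8%) against 38.5%. At least 2 CCAAT were found in 57.6% of the mitosis promoters and in 14.8% of all. The S phase list differed from mitosis in TTTGAA, with 2 of 28 promoters (7.14%), and held CCAAT in 60.7%. Among all genes called lower with LPS the shares were 14.96% for TTTGAA and 43.2% for CCAAT.

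Genes of G1 control and growth arrest went both ways, 7 of 20 called higher and 7 lower, beside 5.78% and 19.7% of all tested genes. The list median was -0.19 (0.06 after rescaling). Ccnd1, the cyclin D1 gene that links growth factors to the cycle, measured 235, 234, 177 and 234 FPKM with morphine and 31.4, 43.7, 26.6 and 36.3 with LPS (log2 difference -2.65, SE 0.17, adjusted p = 1.22e-09). Cdk4, its kinase partner, was lower by 1.25 and Ccnd3 by 1.20. The inhibitors of these kinases were higher, Cdkn2b by 2.68 and Cdkn2a by 2.17. Cdkn1a, the p21 inhibitor, measured 69.3, 75.5, 50.7 and 84.3 FPKM with morphine and 149, 191, 116 and 123 with LPS (log2 difference 1.03, SE 0.18, adjusted p = 0.000264). Cdkn2c, another inhibitor of the same family, was lower by 2.07. The antiproliferative genes Btg1 and Btg2 were higher by 1.59 and 1.62. Mdm2 was not called (log2 difference 0.59, SE 0.40, adjusted p = 0.329) and passed with the block (adjusted p = 0.0343) and after rescaling (0.0308).

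Carbohydrate metabolism was called in 1 direction, upward. Of 23 genes of glycolysis and of glucose or lactate transport, 10 were called higher and 0 lower, with a median of 0.55. The shares over all tested genes were 5.78% and 19.7%. Slc2a1, the glucose transporter GLUT1, measured 28.3, 17.0, 43.2 and 43.2 FPKM with morphine and 139, 100.0, 215 and 217 with LPS (log2 difference 2.33, SE 0.32, adjusted p = 1.8e-05). Slc16a3, the lactate exporter MCT4, measured 17.5, 15.2, 28.3 and 18.4 FPKM with morphine and 90.8, 69.8, 136 and 129 with LPS (log2 difference 2.35, SE 0.33, adjusted p = 2.33e-05). Both were without overlap, and replicates 3 and 4 were the highest within the LPS group. The glycolytic enzymes Tpi1 (1.03), Aldoc (1.00), Ldha (0.73), Aldoa (0.72), Pgam1 (0.63), Eno1 (0.56) and Pgk1 (0.45) differed less. Gapdh was not called (log2 difference 0.23, SE 0.12, adjusted p = 0.197) and passed after rescaling (adjusted p = 0.0194) and without LPS 2 (0.0474).

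Lipid genes were called less evenly. Of 20 genes of lipid uptake, storage and efflux 2 were called higher and 6 lower, beside 5.78% and 19.7% of all tested genes. The counts were 4 and 8 with the block and 4 and 5 after rescaling. The list median was -0.18 (0.07 after rescaling). Lpl measured 184, 154, 794 and 602 FPKM with morphine and 17.5, 17.2, 46.5 and 52.8 with LPS (log2 difference -3.49, SE 0.60, adjusted p = 0.000232). Within either treatment replicates 3 and 4 were well above replicates 1 and 2, and still the groups did not overlap. Fabp3, a fatty acid carrier, was listed at 0 in all LPS libraries and in Morphine 3, and at 8.76, 11.3 and 5.33 FPKM in the other morphine libraries. It was called (adjusted p = 0.000986), but an exact 0 in this table can be a failed estimate, and no fold is given. Acsl4, which activates arachidonate, was called higher (log2 difference 1.34, SE 0.44, adjusted p = 0.0308), a call lost without LPS 3, LPS 4, Morphine 1 or Morphine 2 (adjusted p between 0.0764 and 0.1). Pnpla2, a triglyceride lipase, was called higher (log2 difference 0.43, SE 0.13, adjusted p = 0.0177), a call lost without LPS 1 or LPS 4 (0.0523 and 0.0562). Fabp5 was abundant and not called (log2 difference -0.15, SE 0.22, adjusted p = 0.685). Of 31 cholesterol and fatty acid synthesis genes 1 was called higher and 4 lower (1 and 6 with the block, 1 and 3 after rescaling). The share called was 16.1%, below the 25.5% of all tested genes, and the median was -0.29. Dhcr7, the last enzyme of cholesterol synthesis, was lower (log2 difference -1.16, SE 0.27, adjusted p = 0.003), and Scd, a fatty acid desaturase, too (log2 difference -1.18, SE 0.35, adjusted p = 0.0183), although the Scd call was lost without LPS 2 or Morphine 4 (0.0745 and 0.0673). Mvd was called higher (log2 difference 0.40, SE 0.13, adjusted p = 0.024), a call lost without LPS 1, LPS 2, LPS 4 or Morphine 2 (0.0517 to 0.0705). Scd2 was not called (log2 difference -0.37, SE 0.42, adjusted p = 0.585).

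Metal-binding and antioxidant genes held single large changes. Of 15 metallothionein, zinc and iron genes 4 were called higher and 3 lower, beside 5.78% and 19.7% of all tested genes. The counts were 5 and 5 with the block, and the median was -0.03 (0.19 after rescaling). Mt2A, a metallothionein, measured 1.99, 2.71, 0.376 and 0.378 FPKM with morphine and 154, 105, 72.0 and 67.2 with LPS (log2 difference 5.47, SE 0.43, adjusted p = 3.38e-08), and Mt1 was higher by 3.14. Tf measured 41.6, 30.2, 52.7 and 89.7 FPKM with morphine and 2.44, 2.28, 4.61 and 3.55 with LPS (log2 difference -3.61, SE 0.31, adjusted p = 1.01e-07). Slc39a8, a zinc importer, was called lower (log2 difference -1.25, SE 0.40, adjusted p = 0.0283), a call lost without LPS 1, LPS 2, Morphine 3 or Morphine 4 (adjusted p between 0.0549 and 0.104). Fth1, the ferritin heavy chain and among the most abundant transcripts of both groups, was not called (log2 difference 0.05, SE 0.22, adjusted p = 0.908). Of 18 antioxidant genes 2 were called higher and 4 lower (3 and 5 with the block, 3 and 1 after rescaling), beside 5.78% and 19.7% of all tested genes, with a median of 0.08. Hmox1, the haem oxygenase, measured 554, 302, 567 and 949.9 FPKM with morphine and 1229, 961, 1082 and 1707 with LPS (log2 difference 1.15, SE 0.29, adjusted p = 0.00557), and Slc7a11, the cystine importer, was higher by 1.86. Gpx1 was lower (log2 difference -0.77, SE 0.13, adjusted p = 0.000203) but was not called after rescaling (adjusted p = 0.0875), Cat, the catalase gene, was lower (log2 difference -0.70, SE 0.18, adjusted p = 0.00592), and Sod1 was not called (log2 difference -0.63, SE 0.24, adjusted p = 0.0662). Sod1 passed with the block (adjusted p = 0.00098), without LPS 1 (0.0464) and without Morphine 3 (0.0427).

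Matrix proteases and coagulation genes had the highest median of the lists, 1.93, with 11 of 19 called higher and 1 lower (11 and 4 with the block). The shares over all tested genes were 5.78% and 19.7%. Mmp13, a collagenase, measured 0, 0, 0.498 and 0.334 FPKM with morphine and 44.6, 36.4, 220.1 and 109 with LPS (log2 difference 6.08, SE 0.46, adjusted p = 2.34e-08). Mmp3 (4.20), Adamts4 (3.46), Mmp14 (3.32), Mmp9 (3.25), Mmp12 (2.93) and Mmp10 (2.56) were the other called proteases of this kind. F3, the tissue factor that starts coagulation, measured 0.698, 0, 1.14 and 1.47 FPKM with morphine and 60.9, 58.3, 96.8 and 112 with LPS (log2 difference 5.53, SE 0.29, adjusted p = 1.09e-10). Plau, the urokinase gene, was called lower (log2 difference -1.48, SE 0.42, adjusted p = 0.0122), a call lost without LPS 2 (adjusted p = 0.0509). Timp1, a protease inhibitor, was not called (log2 difference -0.51, SE 0.20, adjusted p = 0.0681; adjusted p = 0.00169 with the block). Of 16 adhesion genes 4 were called higher and 2 lower, beside 5.78% and 19.7% of all tested genes. The counts were 6 and 4 with the block and 7 and 2 after rescaling, and the median was 0.18. Itgal, the alpha chain of the integrin LFA-1, measured 2.18, 4.71, 8.38 and 5.48 FPKM with morphine and 60.3, 70.6, 135 and 171 with LPS (log2 difference 4.13, SE 0.46, adjusted p = 2.01e-06). Itga6, a laminin receptor chain, was lower by 1.67 and Itgb5 by 1.39. Cd48 was not called (log2 difference -0.13, SE 0.31, adjusted p = 0.827).

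Death genes were called in both directions. Of 25 genes of the inflammasome, apoptosis and necroptosis 2 were called higher and 4 lower (7 and 7 with the block, 8 and 3 after rescaling), beside 25.5% of all tested genes called, with a median of -0.10 (0.16 after rescaling). Pycard, the ASC adaptor that links sensors to caspase-1, measured 108, 97.8, 55.9 and 62.2 FPKM with morphine and 22.7, 15.7, 13.5 and 7.69 with LPS (log2 difference -2.40, SE 0.34, adjusted p = 2.56e-05). Gsdmd, the pore-forming protein that releases interleukin-1 beta, was lower by 1.30. Ripk2 (1.60) and Fas (0.81) were higher. Bcl2l1 was not called (log2 difference 0.50, SE 0.26, adjusted p = 0.182) and passed with the block (adjusted p = 0.0189) and after rescaling (0.000492). Of 21 endoplasmic reticulum genes 4 were called higher and 0 lower, beside 5.78% and 19.7% of all tested genes. The counts were 8 and 0 after rescaling, and the median was 0.26. Hspa5, the main chaperone, was one (log2 difference 0.97, SE 0.32, adjusted p = 0.0332), and lost the call without LPS 1, LPS 3, LPS 4, Morphine 1, Morphine 2 or Morphine 3 (adjusted p between 0.0513 and 0.107). Dnajb9 was another (log2 difference 0.67, SE 0.21, adjusted p = 0.0266) and lost it without LPS 1, LPS 3, Morphine 2 or Morphine 3 (0.0671 to 0.0954). Sec61b was not called (log2 difference -0.18, SE 0.30, adjusted p = 0.721). Of 7 glucocorticoid target genes 0 were called by limma, and 0 had an unadjusted p under 0.05. The replicate block called 1 of them lower. Their median was 0.06, and Sgk1 was the most abundant (log2 difference 0.06, SE 0.14, adjusted p = 0.819).

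The genes of the opioid receptor family were listed at 0, and an exact 0 in this table can be a failed estimate. Oprm1, Oprd1, Oprk1 and Oprl1 were listed at 0 FPKM in all 8 libraries, and of the opioid peptide precursors Pomc reached at most 0.955 FPKM and Penk and Pdyn at most 0.155 and 0.0413. Pnoc, the nociceptin precursor, was listed at 0 in every morphine library and measured 0.914, 1.86, 1.62 and 1.15 FPKM with LPS (adjusted p = 6.02e-05). Ogfr, a growth factor receptor for enkephalin that is unrelated to the others, measured 23.8, 23.4, 25.1 and 27.9 FPKM with morphine and 21.7, 12.9, 24.1 and 19.3 with LPS (log2 difference -0.38, SE 0.19, adjusted p = 0.169, 95% interval -0.78 to 0.02), and its groups overlapped.

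Opioid receptors signal through inhibitory G proteins, and 31 genes of G proteins, cAMP enzymes and receptor desensitisation were tested. Of these, 4 were called higher and 8 lower, beside 5.78% and 19.7% of all tested genes. After rescaling the counts were 5 and 7. The list median was -0.01 (0.22 after rescaling). Gna15, a G protein alpha subunit of blood cells that is not of the inhibitory class, measured 19.5, 17.0, 28.9 and 30.5 FPKM with morphine and 1.44, 0.360, 3.09 and 4.29 with LPS (log2 difference -3.06, SE 0.33, adjusted p = 1.33e-06). Rgs18 (-2.40) and Rgs10 (-1.60), which shorten G protein signals, were lower. Pde4b, a cAMP phosphodiesterase, measured 0.853, 0.965, 2.12 and 3.76 FPKM with morphine and 10.5, 9.75, 18.9 and 26.6 with LPS (log2 difference 2.57, SE 0.45, adjusted p = 0.000258), and Crem, a cAMP-responsive factor, was higher by 1.06. Arrb2, the beta-arrestin 2 gene, was lower by 1.19 and Grk6, a receptor kinase, by 1.24. Rgs1 was not called, although its groups did not overlap (log2 difference 0.37, SE 0.15, adjusted p = 0.0911). It passed with the block (adjusted p = 0.00317), after rescaling (0.00838) and without Morphine 2 (0.0486).

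The PBS libraries place both treatments. The median difference over all tested genes was -0.16 for morphine minus PBS and -0.37 for LPS minus PBS, comparisons that share libraries with each other and with the direct one. For the cytokine list the medians were 0.08 and 0.70, for chemokines 0.03 and 1.36, for the NF-kB list -0.28 and 0.71, for microglial identity genes -0.30 and -1.45, for replication -0.25 and -2.19 and for mitosis -0.25 and -2.58. Il1b differed from PBS by -0.22 with morphine (95% interval -0.67 to 0.22) and by 5.51 with LPS, and Cx3cr1 by -0.69 (-1.74 to 0.36) and -4.50. For Lcn2 (-0.51, -0.96 to -0.07) and Fcgr2b (-0.39, -0.70 to -0.07) the interval of morphine minus PBS lay below 0. These intervals are not adjusted for the number of genes, and those of many other named genes covered 0.

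All 2256 called genes had the same sign in replicates 1 and 2 as in replicates 3 and 4. They were called on these same libraries, so the selection itself favoured this agreement. Fits within the sets called 801 genes in the 7 libraries and 3495 in the 13, and a term for the sets called 4111, including all 2256. Tests of the difference between the sets passed for 1 gene, Isg20l2, which was chosen here for that reason, and 472 genes had an unadjusted p under 0.05. Isg20l2 measured 4.24, 3.83, 9.70 and 8.96 FPKM with morphine and was listed at 0, 0, 9.73 and 9.57 FPKM with LPS (adjusted p = 0.000223 for the difference between the sets). Its groups overlapped, as LPS 4 lay within the morphine range. The gene was also listed at 0 in PAM3CSK4 1, and such zeros can be failed estimates.

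**Figure D5:**
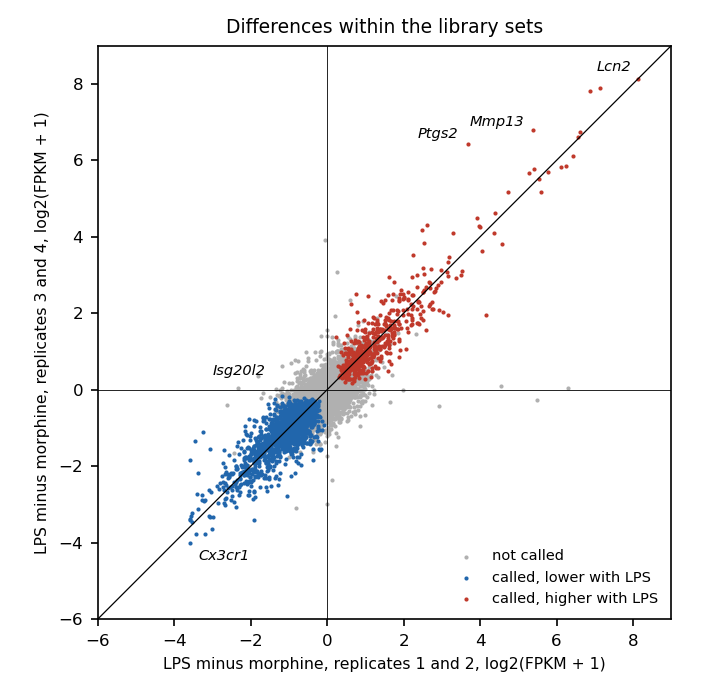
LPS minus morphine in replicates 3 and 4 (y axis) against that in replicates 1 and 2 (x axis), both in log2(FPKM + 1), for 8858 genes, with the line of equality. Red and blue points are genes called higher and lower with LPS over all libraries. All 2256 called genes, which were selected on these same libraries, lie to the lower left or the upper right of the origin. Ptgs2 is at 3.68 and 6.43.

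Genes used as references were not all level. Of 11 tested, 0 were called higher and 3 lower (1 and 4 with the block, 1 and 2 after rescaling). The share called was 27.3%, close to the 25.5% of all tested genes. The list median was -0.06 (0.20 after rescaling). Gusb measured 17.7, 12.8, 31.0 and 26.0 FPKM with morphine and 4.79, 4.20, 6.70 and 7.51 with LPS (log2 difference -1.70, SE 0.24, adjusted p = 3.11e-05), and Ppia was lower by 0.45. Actb, the cytoskeletal actin, was not called (log2 difference -0.68, SE 0.28, adjusted p = 0.0885). It passed with the block (adjusted p = 0.0099), without LPS 4 (0.0452) and without Morphine 2 (0.0399). For a typical gene the 95% interval reached 0.53 to either side of the difference, and of the 6602 genes not called 4386 had an interval within 1 log2 unit of 0.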

How the data were processed

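RNA of cultured rat microglia was sequenced after Smart-Seq2 amplification, per the labels' protocols. The authors deposited 1 table of FPKM values for 20 libraries. Per the submitters' processing notes, the rn6 build was used with DESeq2, featureCounts 1.4.6, HISAT2 2.0.5.1 and Cufflinks 2.2.1, listed without role or order. No annotation is named there. Of 17310 genes, 14814 matched a RefSeq symbol, 2084 a synonym and 412 neither.

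From the deposited FPKM, log2(FPKM + 1) was computed and genes reaching 1 FPKM in 4 or more libraries were kept. A model of 5 group means over 20 libraries (15 residual degrees of freedom) was fitted with limma 3.58.1 in R 4.3.3, with a mean-variance trend, and LPS minus morphine was tested two-sided with Benjamini-Hochberg adjustment. Genes with an adjusted p under 0.05 were called. Fold changes on this scale understate the change of low genes. The procedure was tested on simulated data. Tables and figures were made with Python 3.11.15, pandas 2.3.3 and matplotlib 3.10.9.

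The read depth is not in the table. Whole steps between FPKM values under 0.3 gave the relative depth, and 188 of 190 library pairs agreed within 0.05 log2. Ribosomal RNA genes and some genes used by every cell were listed at exactly 0 in single libraries (14 such values in the 8 libraries), which can be failed estimates.

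Same-numbered morphine and LPS libraries deviated together from their group means (correlations 0.55, 0.60, 0.64 and 0.61, each library best with its own number), so the replicate number was taken to pair them. The main fit left this pairing out, so its calls, SE and adjusted p-values are unpaired. The replicate block was an alternative, fitted over all 20 libraries, though pairing was examined only for morphine and LPS. Its block 2 mixed the library sets: Morphine 2 and LPS 2 were in the smaller, PBS 2, PAM3CSK4 2 and Zymosan 2 in the larger.

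Named genes were the 10 largest called increases and decreases without overlap and with a mean of at least 5 FPKM and no library at 0 in the higher group, up to 2 called members in each direction of each of 31 gene lists (769 entries, of which 35 were not analysed here; higher mean at least 2 FPKM) with the most abundant member not called, and a fixed set of pathway genes. Other list members are named with their difference only. Some genes are not reported here. The genes, lists and tests were chosen with earlier results of these data known. Alternatives were the pseudocount, the filter, median-ratio rescaling, library weights, the replicate block, the samples in the fit, the trend, a term for or restriction to the library sets, zeros as missing and leaving out each library. Promoter sequences came from a RefSeq table of the GRCr8 assembly.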

Additional observations from a re-analysis of the deposited data

Results flagged for a closer look

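In 12 of 288 groups of 4 libraries, 1 library lay far from the other 3 on the log2(FPKM + 1) scale, by Dixon's criterion at the 95% level. Chance gives about 1 in 20 such groups. Of the 12, 6 fell on Morphine 2.

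In Morphine 2, Spp1 measured 316.1 FPKM where the other morphine libraries had 9401 to 15392, and its LPS partner of the same number was low as well. The same library was low for Birc3 (2.497 FPKM), the pore-forming Gsdmd (3.83), the sterol enzyme Mvd (14.8) and Gapdh (808.9), and high for Mki67 (22.5).

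In LPS 2, Il6 measured 396 FPKM where the other LPS libraries had 543.8 to 559.5, and Cdkn2a measured 15.1, above the others. In LPS 4, Cd14 measured 1083 FPKM against 640.5 to 650.6 and Itgb5 2.73 against 0.518 to 0.739. Ccnd1 was low in Morphine 3 (177.1 FPKM) and Pnpla2 slightly high in Morphine 4 (19.8). Leaving out Morphine 2 kept the calls of Birc3, Gsdmd and Mki67 and ended that of Mvd, and leaving out LPS 2 kept those of Il6 and Cdkn2a.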

How the results depend on the processing

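Of the 110 named genes that were called, 0 changed direction under any of 22 alternatives, 81 kept the call under all of them and 29 lost it under at least 1. Several alternatives, such as the replicate block, the set term and no trend, leave the difference unchanged and could not reverse it. With 1 library left out, the number of called genes ranged from 1917 to 2266, those higher with LPS from 410 to 550 and those lower from 1414 to 1856, and 16 named genes lost the call. The replicate block called 3300 genes, 789 higher and 2511 lower, and beside the changes named with their genes it ended no call among the named genes. Rescaling by the median ratio gave 1068 higher and 1139 lower. Library quality weights gave 3582 called, of which 2822 were lower. A term for the library sets gave 4111 called, 983 higher and 3128 lower. The larger set alone gave 3495 (798 and 2697), and the smaller set alone, with fewer libraries, 801 (249 and 552). Alternatives chosen after seeing the data were rescaling with the set term (3672 called, 1848 of them higher) and the 8 libraries alone with the replicate block (3916 called, 961 higher and 2955 lower). The cause of these shifts was not tested. Named genes that were called lost the call in 11 cases with only the 8 libraries in the fit, in 9 with the larger set, in 19 with the smaller set and in 4 each with rescaling and with no filter.

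Of the 34 named genes not called, 12 changed sign somewhere. Under rescaling, with or without the set term, Spp1 moved to 0.11, Spi1 to 0.15, Fabp5 to 0.11, Cd48 to 0.13, Sec61b to 0.075, Itgam to 0.22 and Dusp6 to 0.045. With weights the values were 0.092 for Dusp6, -0.011 for Fth1 and 0.23 for Itgam. In the larger set alone they were 0.0083 for Dusp6, 0.012 for Cd48 and 0.22 for Itgam, and in the smaller set alone 0.0020 for Il1rn, 0.14 for Spp1 and -0.014 for Fth1. With 1 library left out the differences ranged from -0.27 to 0.056 for Cd48, from -0.41 to 0.019 for Dusp6, from -0.12 to 0.18 for Fth1, from -0.11 to 0.55 for Isg15, from -0.32 to 0.34 for Itgam, from -0.088 to 0.36 for Myd88, from -0.031 to 0.16 for Sgk1 and from -1.47 to 1.01 for Spp1. The number of reads is unknown, so for genes near 1 FPKM the precision rests on the spread of 4 libraries.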

Other observations

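Gene families outside the lists were counted after their values had been seen. Of 85 subunits of oxidative phosphorylation, 26 were called lower with LPS than with morphine and 0 higher, beside 19.7% of all tested genes called lower, with a median of -0.42. With the replicate block 47 were called lower, and after rescaling 5 (median -0.19). Mitochondrial ribosomal proteins gave 23 lower and 1 higher of 70, 34 lower and 1 higher with the block, and 4 lower and 1 higher after rescaling. Cytosolic ribosomal proteins gave 2 lower of 87 with a median of -0.27, 29 lower with the block, and 2 higher and 0 lower after rescaling. All 6 subunits of the minichromosome maintenance helicase, which unwinds DNA at replication origins, were lower before and after rescaling (median -2.22). Proteasome subunits gave 8 lower and 1 higher of 43, beside the same 19.7%, and 3 higher and 2 lower after rescaling (median 0.12).

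Some called genes in no list, without overlap and with a higher mean of at least 5 FPKM, had large differences. Those named here were picked after their values had been seen and not by rank alone. Adgre1, the F4/80 antigen of rodent macrophages, measured 51.5, 54.9, 70.5 and 74.3 FPKM with morphine and 449, 516, 418 and 1314 with LPS, without overlap. Il2ra, the alpha chain of the interleukin-2 receptor, measured at most 0.197 FPKM with morphine and 9.37 to 19.6 with LPS. The kinase genes Pim1 and Pim2, which are targets of STAT signalling, measured 2.33 to 8.67 and 1.17 to 2.34 FPKM with morphine and 17.6 to 57.9 and 14.7 to 30.0 with LPS. Hcar2, the receptor for niacin and hydroxybutyrate, measured 6.23 to 22.8 and 53.0 to 159 FPKM. Pld4, a lysosomal exonuclease of myeloid cells, was the largest decrease outside the lists, with 157, 172, 150 and 41.5 FPKM with morphine and 16.1, 20.9, 17.6 and 2.57 with LPS, and replicate 4 was the lowest in both groups. Stmn1, a microtubule regulator of dividing cells, measured 50.6 to 101 FPKM with morphine and 7.22 to 19.3 with LPS.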
